A study of Saccharomyces cerevisiae with 16 samples.

Results

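The 9 genes described here encode the subunits of the yeast oligosaccharyltransferase: STT3 (YGL022W), OST1 (YJL002C), OST2 (YOR103C), OST3 (YOR085W), OST4 (YDL232W), OST5 (YGL226C-A), OST6 (YML019W), SWP1 (YMR149W) and WBP1 (YEL002C). They were taken by systematic ID from the 7126 genes listed in each file, and all 9 had enough reads to be tested together with 6106 genes in all. The family was selected on the polysomal-against-total values of its member OST5, so the polysomal-against-total values of the 9 genes are given as a description without a test.

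Oligosaccharyltransferase sits in the membrane of the endoplasmic reticulum beside the protein-conducting channel and transfers a preassembled glycan from the lipid dolichol to asparagines of proteins that enter the lumen. STT3 carries the active site. OST3 and OST6 are alternative subunits with a thioredoxin-like lumenal domain, so that a complex holds either of them, and the very small OST4 holds OST3 or OST6 to STT3. OST1 and OST5 form a further subcomplex, and OST2, WBP1 and SWP1 another.

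The cells were Saccharomyces cerevisiae spheroplasts, which lack most of the cell wall, and every group carried the deletion of TRM10, a tRNA methyltransferase gene. They were electroporated with no RNA, with rancRNA_18, a noncoding RNA that binds ribosomes and is a piece of the TRM10 transcript, or with rancRNA_18-M2. The labels do not state how the M2 form differs from rancRNA_18. Poly(A) mRNA was then sequenced from the whole lysate (total mRNA) and from the polysomes, the fraction of mRNAs that carry several ribosomes (polysomal mRNA). Cells given no RNA and cells given rancRNA_18-M2 each supplied 3 total and 3 polysomal libraries. For rancRNA_18 there were 2 total libraries and 1 polysomal library, because its 2 deposited polysomal files were identical in every gene. No label states that replicates came from separate cultures, so p-values measure the spread between these libraries, which may be technical.

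Libraries held 16691019 to 31148081 reads in genes, of which the 9 subunit genes took 0.0307 to 0.0602%. TRM10 itself had 0 to 5 reads in a library. The share of noncoding RNA was 0.0173 to 0.0348% in the total and 0.00768 to 0.0135% in the polysomal libraries, and the part of this difference in the results was not tested. No spike-in is named, so all levels are relative to the rest of the mRNA in the same library.

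The subunit genes differ widely in size. In the RefSeq annotation of assembly R64, matched by systematic ID, STT3 has 2157 coding bases, OST1 1431, WBP1 1293, OST3 1053, OST6 999, SWP1 861, OST2 393, OST5 261 and OST4 111. OST4 and OST5 therefore encode proteins of only 36 and 86 residues. OST5 is the only one of the 9 with an intron, of 149 bases, placed after base 21 of the coding sequence. None of the 9 genes overlaps another RefSeq gene. The coding sequences of the 2 shortest genes are shown because OST5 stood highest of the 9 in polysomes and the still shorter OST4 did not. Capitals mark the start and stop codons, and the sequences are those of RefSeq R64.
OST4: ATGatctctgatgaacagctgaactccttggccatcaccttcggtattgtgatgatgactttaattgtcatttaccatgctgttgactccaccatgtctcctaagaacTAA
OST5: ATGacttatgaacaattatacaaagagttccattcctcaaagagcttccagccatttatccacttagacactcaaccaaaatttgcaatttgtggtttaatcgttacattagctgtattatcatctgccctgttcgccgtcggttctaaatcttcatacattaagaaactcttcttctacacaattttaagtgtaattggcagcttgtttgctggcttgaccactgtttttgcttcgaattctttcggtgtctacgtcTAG

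Levels are read counts relative to library size (CPM) in libraries scaled by the trimmed mean of M-values (TMM), and were divided by coding length where different genes are compared. On this per-length scale OST4 had the highest mean level over the 15 libraries, at 583.8 CPM per kilobase. OST5 followed at 274.4, OST2 at 139.8 and SWP1 at 68.8 CPM per kilobase. The short members thus stood well above the long ones. OST3 and WBP1 had mean levels of 42.6 and 42.3 CPM per kilobase, and their libraries overlapped. STT3, the catalytic subunit, had 30.0 CPM per kilobase, OST1 26.5 and OST6 12.03. The libraries of STT3 and OST1 also overlapped, whereas every library of OST6 lay below every library of the other 8 genes. Coding length leaves out the untranslated regions, which weigh most in a gene as short as OST4, and their part in this order was not tested.

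**Figure D1:**
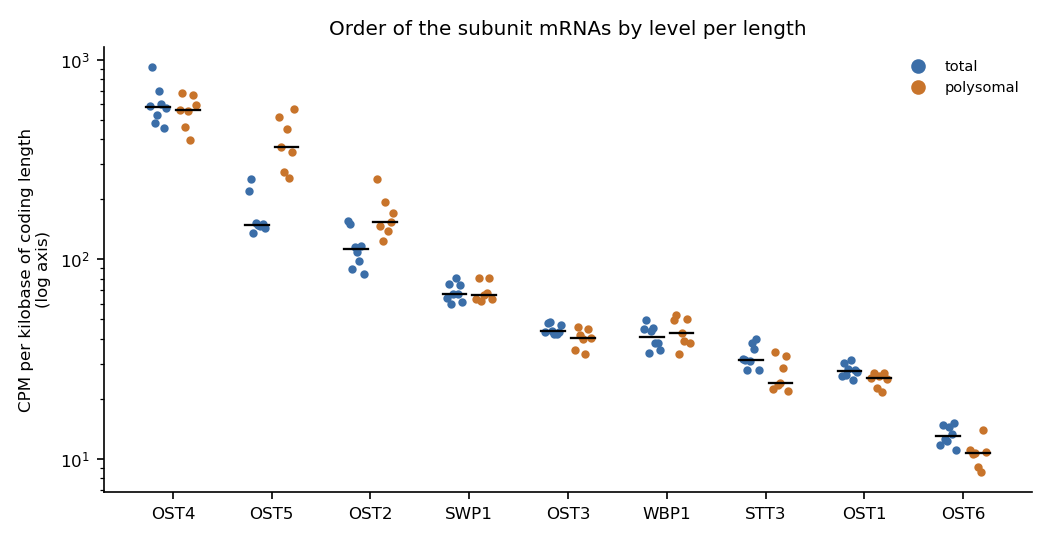
Level of each subunit mRNA in CPM per kilobase of coding length, on a log axis, in the 8 total (blue) and 7 polysomal (orange) libraries, where each point is a library and bars are medians. OST4 stands highest and OST6 lowest, and OST5 has a median of 148.9 in total and 366.7 in polysomal libraries.

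OST5, the partner of OST1, was higher in polysomal than in total mRNA in every electroporation. With no RNA its level was 57.3, 66.1 and 35.5 CPM in total replicates 1, 2 and 3, and 134.9, 95.7 and 71.6 CPM in the polysomal ones. The lowest polysomal library lay above the highest total library, and in both fractions replicate 3 was the lowest. With rancRNA_18 the 2 total libraries had 39.5 and 38.6 CPM and the single polysomal library 116.6 CPM. With rancRNA_18-M2 the total libraries were nearly level at 38.3, 39.1 and 37.6 CPM, while the polysomal libraries spread over 66.3, 89.5 and 147.6 CPM. Here too the fractions did not overlap, and replicate 3 was the highest of the polysomal libraries where it had been the lowest with no RNA. OST5 thus varied little in total mRNA of the RNA-treated groups and widely in the other replicated groups.

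The group means for OST5 were 53.0 ± 15.7 CPM in total and 100.8 ± 31.9 CPM in polysomal mRNA with no RNA (SD, n = 3 each). With rancRNA_18-M2 they were 38.3 ± 0.721 and 101.1 ± 41.9 CPM (SD, n = 3 each). In the 6 same-numbered pairs of a polysomal and a total library, polysomal OST5 was 1.45 to 3.92 times total OST5 and above it in 6 of 6. The fitted log2 fold change was 0.93 (SE 0.30) with no RNA, 1.58 (SE 0.43) with rancRNA_18 and 1.40 (SE 0.30) with rancRNA_18-M2. Among the 6106 genes tested it ranked 22, 41 and 15 from the top in these 3 comparisons. The reads behind these values numbered 743 to 3582 per library for OST5.

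OST2, a small subunit whose mammalian counterpart is DAD1, was the next highest in polysomes. Its level with no RNA was 61.4, 59.2 and 34.99 CPM in total and 99.0, 57.5 and 48.3 CPM in polysomal replicates 1 to 3, so the fractions overlapped. With rancRNA_18 it was 45.4 and 42.7 CPM in total and 75.9 CPM in the polysomal library. With rancRNA_18-M2 it was 38.4, 46.1 and 33.1 CPM in total and 54.6, 60.5 and 67.1 CPM in polysomal mRNA. The last 2 comparisons had no overlap, unlike that with no RNA. The log2 fold change of OST2 was 0.40 (SE 0.26), 0.79 (SE 0.38) and 0.63 (SE 0.26) for no RNA, rancRNA_18 and rancRNA_18-M2. In the fit without pairing, the value with no RNA was 0.03 when polysomal replicate 1 alone was left out. The pair values of OST2 with no RNA were 0.69, -0.04 and 0.46 for replicates 1, 2 and 3. OST2 was higher in the polysomal library in 5 of the 6 pairs.

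The other partners of OST2 lay near 0. WBP1, the homologue of mammalian OST48, had log2 fold changes of 0.09, -0.05 and 0.20 for no RNA, rancRNA_18 and rancRNA_18-M2. SWP1, which assembles with WBP1, had 0.05, -0.16 and 0.06. Each was higher in 5 of the 6 pairs, by little: the pair values of SWP1 ran from -0.01 to 0.11 and those of WBP1 from -0.02 to 0.40 on the log2 scale. Without TMM, with libraries scaled to their totals alone, the median of all tested genes moved to -0.22, -0.38 and -0.20, and WBP1 and SWP1 with no RNA, and WBP1, SWP1 and OST4 with rancRNA_18-M2, moved to below 0 with it. OST5 was at 0.71, 1.26 and 1.27 on that scale.

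STT3, the catalytic subunit, was lower in polysomes in 5 of the 6 pairs, with overlap between the fractions in the replicated groups. With no RNA it had 68.1, 67.3 and 60.0 CPM in total and 48.2, 74.3 and 50.8 CPM in polysomal replicates 1 to 3. Only replicate 2 was higher in the polysomal library. With rancRNA_18-M2 it had 76.6, 86.2 and 60.2 CPM in total and 61.4, 70.4 and 47.0 CPM in polysomal mRNA, lower in each of the 3 pairs. With rancRNA_18 the 2 total libraries had 66.9 and 82.6 CPM and the polysomal library 51.7 CPM. The log2 fold changes of STT3 were -0.17 (SE 0.20), -0.53 (SE 0.31) and -0.32 (SE 0.20) for no RNA, rancRNA_18 and rancRNA_18-M2. With no RNA, leaving out polysomal replicate 2 gave -0.39 and leaving out polysomal replicate 1 gave -0.06.

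The alternative subunits OST3 and OST6 both had lower polysomal values. OST6 with no RNA had 11.8, 14.8 and 12.6 CPM in total and 11.1, 10.6 and 10.8 CPM in polysomal mRNA, and the fractions did not overlap. With rancRNA_18-M2 it had 13.3, 15.1 and 11.04 CPM in total and 8.59, 13.9 and 10.8 CPM in polysomal mRNA, with overlap. OST6 was lower in the polysomal library in each of the 6 pairs, with log2 fold changes of -0.27, -0.54 and -0.25 for no RNA, rancRNA_18 and rancRNA_18-M2. OST3 had -0.19, -0.11 and -0.16. Per length, the level of OST3 was 2.86 to 4.34 times that of OST6 over the 15 libraries. The lowest ratio, 2.86 with a 95% interval of 2.54 to 3.24 for counting error only, was in total mRNA with rancRNA_18-M2, and the highest, 4.34 with an interval of 3.64 to 5.21, in the polysomal library with rancRNA_18. By group the mean ratio ran from 3.25 to 4.34, and the libraries of the 5 replicated groups overlapped.

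OST1 and OST4 are the remaining subunits. OST1, the homologue of mammalian ribophorin I, had the smallest pooled within-group SD of the 9, and its level over all libraries ran from 31.2 to 44.6 CPM. Its log2 fold changes were -0.13, -0.19 and -0.12 for no RNA, rancRNA_18 and rancRNA_18-M2, and it was lower in the polysomal library in each of the 6 pairs by at most 0.21. OST4 was lower in 4 of 6 pairs and higher in 2, over a range of -0.60 to 0.55, and had log2 fold changes of -0.22 (no RNA), -0.15 (rancRNA_18) and 0.02 (rancRNA_18-M2). With no RNA its total replicates 1, 2 and 3 had 65.2, 101.6 and 53.6 CPM and the polysomal ones 62.4, 75.9 and 50.9 CPM. When total replicate 2 alone, the highest of all OST4 libraries, was left out of the fit without pairing, the value was 0.08. Its polysomal partner stayed in that fit. The pair values of OST4 with no RNA were -0.06, -0.42 and -0.08 for replicates 1, 2 and 3, each below 0. OST4, the shortest of the 9 genes, thus did not share the polysomal values of OST5 and OST2.

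**Figure D2:**
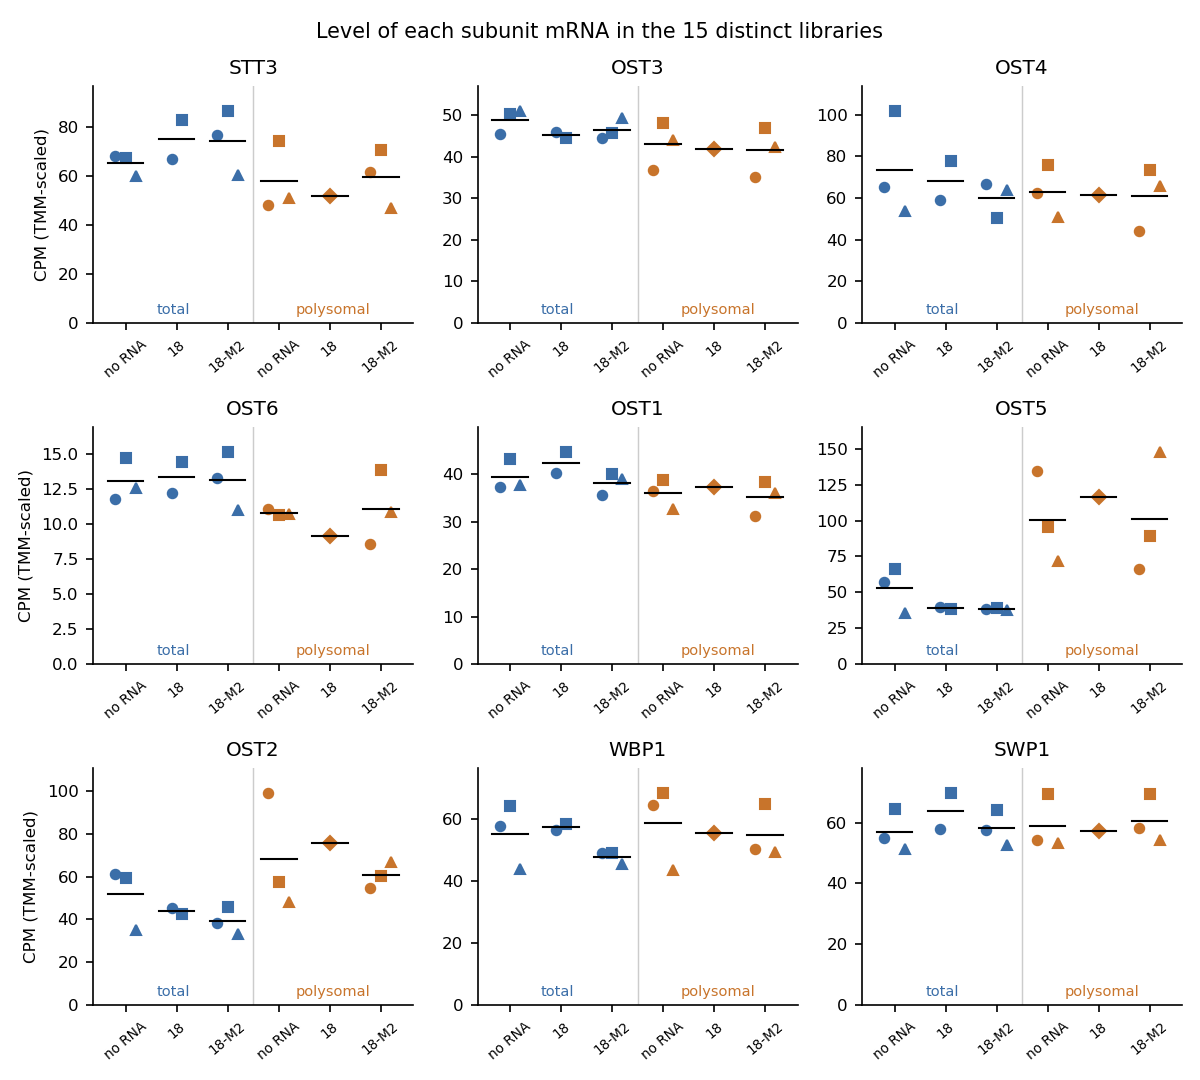
Level of each subunit mRNA in CPM (TMM-scaled) in total (blue) and polysomal (orange) libraries of each electroporation, where 18 and 18-M2 stand for rancRNA_18 and rancRNA_18-M2. Circles, squares and triangles are replicates 1, 2 and 3, the diamond is the single rancRNA_18 polysomal library, and bars are group means. OST5 stands at 35.5 to 66.1 CPM in total and 66.3 to 147.6 CPM in polysomal libraries.

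Counts of genes past a threshold follow as a description. They rest on the values that selected the family, so they are no test of it and nothing is read from them. A gene was called at a Benjamini-Hochberg adjusted p under 0.05 by edgeR's quasi-likelihood test. For polysomal against total mRNA with no RNA, 0 of the 9 subunit genes were called, beside 0.197% of all genes tested. With rancRNA_18 it was 0 of 9 beside 0%, and with rancRNA_18-M2 it was 0 of 9 beside 0.377%, of which 0.0819% were higher in polysomes. With the replicate number as a block, OST5 was called with no RNA, beside 21.8% of all genes. With rancRNA_18-M2, OST2, OST5 and STT3 were called, beside 31.8%. With rancRNA_18, OST5 was called if its polysomal library was taken as replicate 1, beside 12.3%, and OST5, OST6 and STT3 if it was taken as replicate 2, beside 29.8%. DESeq2 called 1 of the 9 with rancRNA_18-M2, beside 6.64% of the genes it tested, 0 with no RNA, beside 1.67%, and 0 with rancRNA_18, beside 0.791%, where 1 of the 9 had no adjusted p. An unadjusted p under 0.05 was reached with DESeq2 by 1 of the 9 with no RNA and 2 with rancRNA_18-M2. By edgeR's quasi-likelihood test without the block it was also 1 and 2 of the 9, beside 10.6% and 17.3% of all genes.

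Groups that did not overlap were counted in the same way. With no RNA, every polysomal library was higher than every total library for OST5, which held for 5.68% of all genes, and lower for OST6, which held for 7.68%. With rancRNA_18-M2, all polysomal libraries were higher for OST2, OST5 and WBP1, beside 9.38% of all genes, and lower for none of the 9, beside 10.7%. With rancRNA_18, where 1 library was set against 2, the higher genes were OST2 and OST5, beside 35% of all genes, and the lower ones were OST1, OST3, OST6, STT3, SWP1 and WBP1, beside 42.6%. On library totals without TMM, OST5 was the only higher gene of the 9 with no RNA, beside 2.6% of all genes, and with rancRNA_18-M2, beside 5.04%, and OST2 and OST5 were the higher ones with rancRNA_18, beside 16.7%. The lower genes on that scale were OST1 and OST6 with no RNA, beside 14.6%, OST6 and STT3 with rancRNA_18-M2, beside 15.7%, and all but OST2 and OST5 with rancRNA_18, beside 67.6%.

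**Figure D3:**
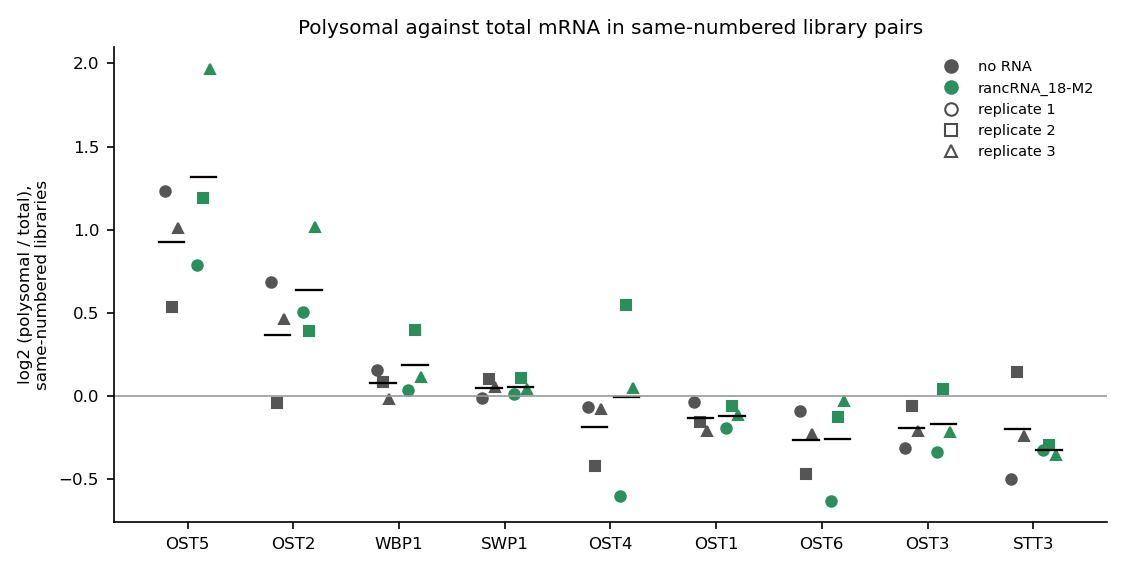
Log2 ratio of polysomal to total CPM in each same-numbered pair of libraries for the 9 subunit genes, ordered by their median, with no RNA in grey and rancRNA_18-M2 in green. Bars are means of 3 pairs, and marker shape gives the replicate number. OST5 lies above 0 in 6 of 6 pairs and OST1 and OST6 below 0 in 6 of 6.

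Polysomal values ran with coding length over all genes. Across the 5744 genes with a coding length, which are not independent replicates, Spearman's rho between coding length and the polysomal-against-total log2 fold change was -0.361 with no RNA, -0.441 with rancRNA_18 and -0.425 with rancRNA_18-M2. The trend was not monotone: it rose over the shortest genes, where OST4 lies and where 19 genes are no longer than it, and fell between about the length of OST5 and that of OST1. After a smooth trend on coding length was subtracted, OST5 stood 0.67, 1.15 and 0.94 above it and ranked 15, 24 and 12 from the top. Of the 185 genes no longer than OST5, 2 had a higher value with no RNA, 4 with rancRNA_18 and 0 with rancRNA_18-M2. The ranks of OST5 reuse the values that selected the family, so they are a description and no test. OST2 stood 0.16, 0.41 and 0.25 above the trend, and WBP1 stood 0.17, 0.09 and 0.30 above it. WBP1 was thus farther above it than OST2 with no RNA and with rancRNA_18-M2. OST4 stood 0.29, 0.42 and 0.34 below it. STT3 and OST6 also stood below the trend in the 3 comparisons, by 0.08, 0.33 and 0.20 for STT3 and by 0.24, 0.51 and 0.22 for OST6. OST3 was below it as well, at -0.14, -0.05 and -0.11 from the trend. OST1 and SWP1 lay on both sides of it.

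**Figure D4:**
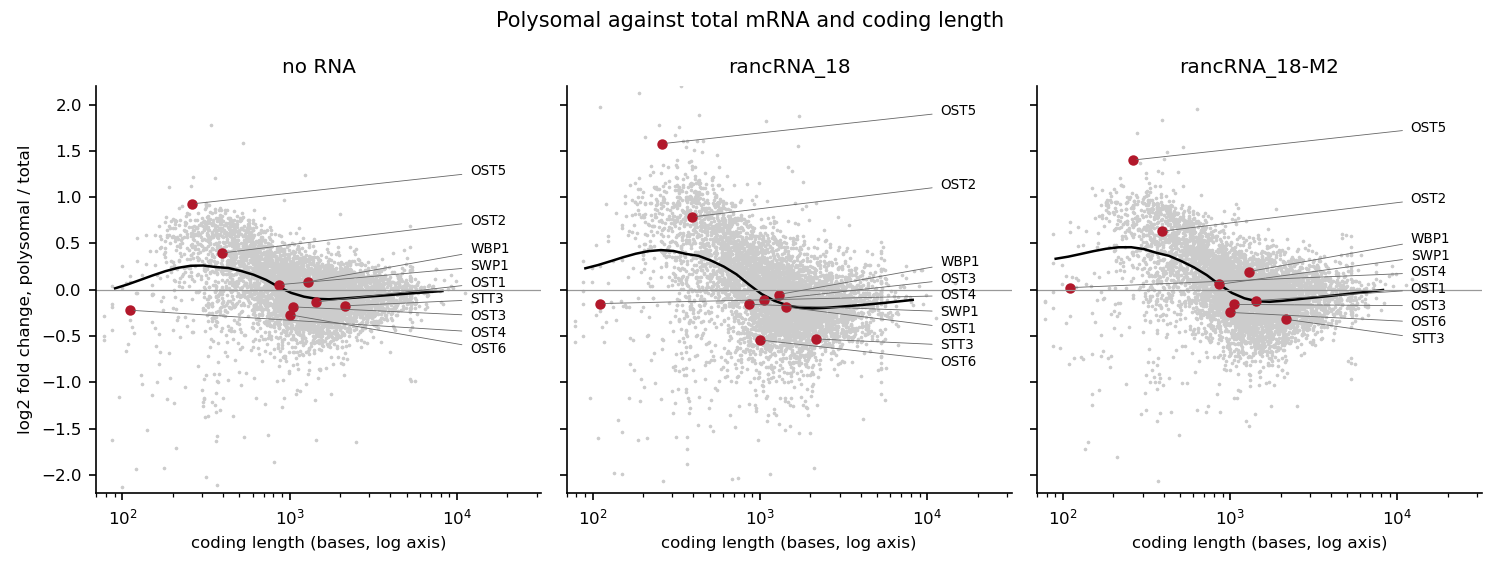
Polysomal-against-total log2 fold change of each gene (grey) against its coding length in bases on a log axis, for the 3 electroporations, with a smooth trend in black and the 9 subunit genes in red. Genes beyond 2.2 in size are not drawn. OST5, of 261 bases, lies 0.67 to 1.15 above the trend, and OST4, of 111 bases, lies 0.29 to 0.42 below it.

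The 9 genes also differed in how much they varied between replicates. The pooled within-group SD of OST1 was 0.12 on the log2 scale, smaller than that of all but 4.54% of the 6106 genes, and that of OST3 was 0.15. OST5 had the largest of the 9, at 0.41, with 75.2% of genes below it, and OST2 and OST4 had 0.36 and 0.35. The median of all genes was 0.29. For SWP1, taking the replicate number into account lowered the SE of the difference between rancRNA_18-M2 and no RNA in total mRNA from 0.16 to 0.08. For OST5 it was 0.30 with and without the number, so replicate number took up little of the spread of this gene.

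Profiles over the 15 libraries were compared by the root mean square difference of log2 CPM, after each gene was centred on its own mean. The closest of all pairs of subunit genes were OST1 and OST3, at 0.12, and OST1 and SWP1, at 0.13. This measure is not scaled to how much a gene varies, so genes that vary little lie close together. OST1, OST3 and SWP1 had the smallest pooled within-group SDs of the 9, at 0.12, 0.15 and 0.18. OST5 was nearest to OST2 among the subunit genes, at 0.39, and its distance to the other 7 ran from 0.64 for WBP1 to 0.89 for STT3. Among 4393 genes with a mean of at least 20 CPM, 39 were nearer to OST5 than OST2 was. The nearest were AIM29 at 0.23, YGR182C at 0.24, YBR013C at 0.26, DTD1 (a D-tyrosyl-tRNA deacylase) at 0.27 and ATX1 (a copper chaperone) at 0.28. Their coding lengths, where RefSeq gives one, were 468 bases for AIM29, 390 for YBR013C, 453 for DTD1 and 222 for ATX1. With no RNA their polysomal-against-total log2 fold changes were 0.76 for AIM29, 0.58 for YGR182C, 0.71 for YBR013C, 0.73 for DTD1 and 0.75 for ATX1. These genes were picked for a profile like that of OST5 over the same libraries. Their higher polysomal values follow from that choice and are no separate evidence.

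Whether the electroporated RNA altered the subunit mRNAs was asked within each fraction. In total mRNA, 0 of the 9 genes were called for rancRNA_18 against no RNA (n = 2 against 3), beside 0% of all genes tested by edgeR's quasi-likelihood test. OST5 had a log2 fold change of -0.44 (SE 0.33) and an adjusted p of 1, with both rancRNA_18 libraries inside the range of the 3 with no RNA. OST2 had -0.23 (SE 0.29) and STT3 0.20 (SE 0.23). For rancRNA_18-M2 against no RNA (n = 3 against 3) it was again 0 of 9 beside 0%, with OST5 at -0.47 (SE 0.30), OST2 at -0.40 (SE 0.26), OST4 at -0.29 (SE 0.25), WBP1 at -0.21 (SE 0.19) and STT3 at 0.19 (SE 0.20), each with an adjusted p of 1. For OST5 the 3 rancRNA_18-M2 libraries lay above the lowest and below the other 2 libraries with no RNA. These SEs leave out the pairing by replicate number. With the replicate block, WBP1 stood at -0.19 (SE 0.11), STT3 at 0.17 (SE 0.11) and OST5 at -0.46 (SE 0.30) in this comparison, and 0 of the 9 were called. Between rancRNA_18 and rancRNA_18-M2, 0 of 9 genes were called beside 0%, and values ran from -0.04 for OST3 to 0.27 for WBP1. Each of these comparisons shares libraries with the others, so they are not independent of each other.

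In polysomal mRNA, 0 of the 9 genes were called for rancRNA_18 against no RNA (1 library against 3), beside 0% of all genes, with values from -0.24 (SE 0.29) for OST6 to 0.21 (SE 0.41) for OST5. For rancRNA_18-M2 against no RNA, 0 of 9 were called beside 0%. OST5 stood at 0.01 (SE 0.29), and the values of the 9 genes ran from -0.17 (SE 0.26) for OST2 to 0.04 (SE 0.20) for STT3. The polysomal levels of OST5 in these groups, 71.6 to 134.9 CPM with no RNA and 66.3 to 147.6 CPM with rancRNA_18-M2, overlapped over nearly their whole range. For rancRNA_18 against rancRNA_18-M2 it was 0 of 9 beside 0%, from -0.28 (SE 0.29) for OST6 to 0.32 (SE 0.36) for OST2. In none of these 6 comparisons did a subunit gene reach an unadjusted p under 0.05, by edgeR's quasi-likelihood test without the block or by DESeq2. With the replicate block and the single rancRNA_18 polysomal library as replicate 2, 8.61% of all genes were called for rancRNA_18 against no RNA and 14.2% against rancRNA_18-M2, and still 0 of the 9. In that fit the 9 values against no RNA ran from -0.42 (SE 0.23) for OST6 to 0.19 (SE 0.42) for OST5, with STT3 at -0.38 (SE 0.17). Against rancRNA_18-M2 they ran from -0.44 (SE 0.23) for OST6 to 0.22 (SE 0.30) for OST2. There STT3 stood at -0.42 (SE 0.17) and SWP1 at -0.27 (SE 0.13).

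**Figure D5:**
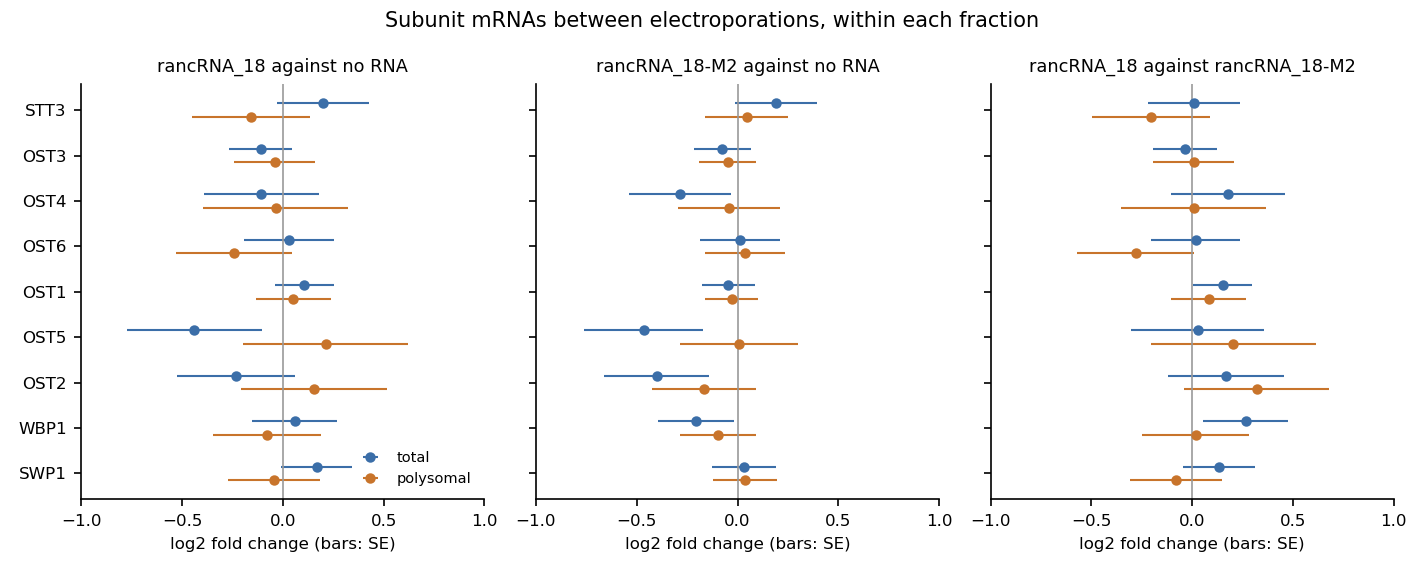
Log2 fold change of each subunit mRNA between electroporations in total (blue) and polysomal (orange) mRNA, with bars of 1 SE from the fit over all groups. None of the 9 genes was called in any of the 6 comparisons, and the values run from -0.47 (OST5, total mRNA, rancRNA_18-M2 against no RNA) to 0.32 (OST2, polysomal mRNA, rancRNA_18 against rancRNA_18-M2).

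Whether the polysomal-against-total ratio itself differed between electroporations was tested as an interaction. OST5 had the largest value of the 9 for rancRNA_18 against no RNA, at 0.65 (SE 0.52), and for rancRNA_18-M2 against no RNA, at 0.47 (SE 0.42), each with an adjusted p of 1. These values combine a lower mean of OST5 in total mRNA of the RNA-treated groups with a polysomal mean that was similar to or higher than that with no RNA. STT3 had the lowest value for rancRNA_18 against no RNA, at -0.36 (SE 0.37), and for rancRNA_18-M2 against no RNA, at -0.15 (SE 0.29). Between rancRNA_18 and rancRNA_18-M2 the values ran from -0.30 (SE 0.36) for OST6 to 0.18 (SE 0.53) for OST5. In each of the 3 comparisons 0 of the 9 genes were called by edgeR's quasi-likelihood test without the block, beside 0% of all genes, and 0 had an unadjusted p under 0.05 in that fit or by DESeq2. With the block and the rancRNA_18 polysomal library as replicate 2, edgeR called 0 of the 9 for rancRNA_18 against no RNA, beside 2.77% of all genes, and 0 against rancRNA_18-M2, beside 2.6%. In that fit the 9 values ran from -0.46 (SE 0.21) for STT3 to 0.65 (SE 0.54) for OST5 in the former. In the latter they ran from -0.43 (SE 0.28) for OST6 to 0.18 (SE 0.37) for OST2. SWP1 stood at -0.33 (SE 0.16) in both.

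Other genes of the pathway were set beside the subunits from 6 lists: synthesis of the lipid-linked glycan (21 genes), supply of its sugar nucleotides (8), glycan trimming and quality control (8), the translocon and its targeting factors (17), signal peptidase (4) and the protein O-mannosyltransferases (6). All had enough reads to be tested. By edgeR's quasi-likelihood test without the block, 0 of these 64 genes were called for polysomal against total mRNA in any electroporation. An unadjusted p under 0.05 was reached in that fit by 4 of them with no RNA (6.25%, beside 10.6% of all genes), 6 with rancRNA_18 (9.38%, beside 8.24%) and 11 with rancRNA_18-M2 (17.2%, beside 17.3%), shares below or near those of all genes. DESeq2 called 2 of the 64, 1 and 4, beside 1.67%, 0.791% and 6.64% of the genes it tested. The median log2 fold change with no RNA was 0.15 for the translocon list, 0.17 for signal peptidase, -0.03 for glycan synthesis, -0.17 for sugar nucleotide supply, -0.05 for trimming and -0.06 for the O-mannosyltransferases, beside -0.02 for all genes and -0.13 for the 9 subunits. The calls that follow are from the fit with the replicate block, in which 21.8% of all genes were called with no RNA and 31.8% with rancRNA_18-M2. Genes called higher in polysomes were 12.3% of all genes with no RNA and 16.8% with rancRNA_18-M2. Genes called lower were 9.48% and 15%.

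Of the 17 translocon and targeting genes, 6 rose in polysomes with no RNA and 1 fell, beside 12.3% and 9.48% of all genes. SSS1, the small subunit of the Sec61 channel, rose by 0.82 (adjusted p = 0.000178), and SEC72, of the Sec63 complex, by 0.54 (adjusted p = 0.00211). SEC63 fell by 0.40 (adjusted p = 0.00969), and SRP21, of the signal recognition particle, rose by 0.41 (adjusted p = 0.0116). In the same edgeR fit the list had 6 higher and 1 lower with rancRNA_18-M2, beside 16.8% and 15% of all genes. There, SSS1 rose by 1.01 (adjusted p = 1.51e-05), SBH1, a further small subunit of the channel, by 0.67 (adjusted p = 0.000379) and SEC72 by 0.58 (adjusted p = 0.000692). SSS1 and SBH1 have 243 and 249 coding bases, close to OST5, whereas SEC63 has 1992. No length is given here for SEC72 and SRP21, and the part of coding length in these calls was not tested. With rancRNA_18, SSS1 rose by 0.99 or 0.94 (adjusted p = 0.00279 or 0.000556) with its library as replicate 1 or 2. Of the 4 signal peptidase genes, SPC1, of 285 coding bases, rose by 0.60 with no RNA (adjusted p = 0.000879) and by 0.59 with rancRNA_18-M2 (adjusted p = 0.000424), and the other 3 were not called.

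Among the enzymes upstream of the transferase, calls went in both directions. For glycan synthesis with no RNA or rancRNA_18-M2, 2 or 4 of 21 were called beside the 21.8% and 31.8% of all genes, and the list medians in that fit were -0.04 and 0.01 beside -0.03 and -0.01 for all genes. Of the 21 glycan synthesis genes, ALG13, which with ALG14 adds the second sugar, rose by 0.45 with no RNA (adjusted p = 0.00371), and RER2, which makes the dolichol chain, fell by 0.35 (adjusted p = 0.0153). With rancRNA_18-M2, 2 rose and 2 fell: ALG13 rose by 0.42 (adjusted p = 0.00425) and SRT1, another dolichol-chain enzyme, by 0.82 (adjusted p = 0.0221), while RER2 fell by 0.36 (adjusted p = 0.00844) and ALG2, a mannosyltransferase, by 0.46 (adjusted p = 0.0295). Of the 8 sugar nucleotide genes, 1 rose and 2 fell with no RNA, beside 12.3% and 9.48% of all genes. In that list 1 rose and 5 fell with rancRNA_18-M2, beside 16.8% and 15%. There, QRI1, which makes UDP-N-acetylglucosamine, fell by 0.59 (adjusted p = 0.000148), PMI40, which supplies mannose phosphate, fell by 0.73 (adjusted p = 0.000243), UGP1, which makes UDP-glucose, fell by 0.52 (adjusted p = 0.00144), and GNA1, of the same route as QRI1, rose by 0.54 (adjusted p = 0.000973). With no RNA, GNA1 rose by 0.37 (adjusted p = 0.0216), and QRI1 and UGP1 fell by 0.30 and 0.33 (adjusted p = 0.0312 and 0.0396).

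Of the 8 trimming and quality control genes, 0 rose and 2 fell with no RNA in the edgeR fit with the block, beside 12.3% and 9.48% of all genes. The mannosidase MNS1 fell by 0.39 (adjusted p = 0.011) and the glucosidase CWH41 by 0.30 (adjusted p = 0.0358). With rancRNA_18-M2, GTB1, a glucosidase subunit, fell by 0.32 (adjusted p = 0.0232) and MNS1 by 0.30 (adjusted p = 0.0318). Of the 6 O-mannosyltransferases, which attach mannose to serine and threonine, 0 were called with no RNA and PMT5 fell by 0.46 with rancRNA_18-M2 (adjusted p = 0.0217). Between electroporations, 0 genes of the 6 lists were called by edgeR without the block, by DESeq2, or by edgeR with the block and the rancRNA_18 polysomal library as replicate 1. Without the block at most 1 of them, and with DESeq2 at most 2, had an unadjusted p under 0.05 in a comparison. With it as replicate 2, 3 of the 64 genes were higher and 4 lower in polysomal mRNA with rancRNA_18 than with rancRNA_18-M2, beside 14.2% of all genes called. The higher ones were the sugar nucleotide genes UGP1 (0.63, adjusted p = 0.0145), QRI1 (0.53, adjusted p = 0.0174) and PMI40 (0.57, adjusted p = 0.044). The lower ones were MNS1 (-0.71, adjusted p = 0.00727), SEC61, the channel itself (-0.60, adjusted p = 0.0345), ALG9, a mannosyltransferase (-0.59, adjusted p = 0.0354), and PMT2 (-0.61, adjusted p = 0.0377). Against no RNA, GFA1, of the route to UDP-N-acetylglucosamine (-0.55, adjusted p = 0.0365), and MNS1 (-0.59, adjusted p = 0.0288) were lower in polysomal mRNA, beside 8.61%, and GFA1 was lower in the interaction (-0.74, adjusted p = 0.0436), beside 2.77%. Which number that library carries is not known.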

How the data were processed

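Poly(A) RNA was sequenced from 16 deposited libraries in 6 groups. The deposited files hold raw counts per gene, 1 library per file. Reads were processed with FastQC, HISAT2 and featureCounts, per the submitters' processing notes. Tool versions, build and strand setting were not given in the sources used here. A strand-keeping kit was used, per the labels' protocols. The 2 rancRNA_18 polysomal files agreed in all 7126 genes, against 6404 to 6533 genes that differed in other pairs, and were counted as 1 library. Its group borrows the spread of the others.

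Counts were tested with edgeR 4.0.16 (quasi-likelihood, robust, TMM, filterByExpr, 1 coefficient per group, all 6 groups) in R 4.3.3, with Benjamini-Hochberg adjustment over 6106 genes and a threshold of 0.05. The fit had 9 residual degrees of freedom. Alternatives were RLE size factors, no filter, DESeq2 1.42.0, the replicate block, each library left out, and, chosen after seeing the data, library totals without TMM. Replicate numbers come from the titles. Same-numbered libraries deviated together from their group means in each of 26 pairs (r from 0.429 to 0.794), so the numbers pair the libraries by the data. In 52 pairs with different numbers r ran from -0.587 to 0.0296. Deviations sum to 0 within a group, so these lower values follow in part from the former and are no separate support. The script was tested on simulated data. Log2 CPM for profiles used a prior count of 2, and the length trend was a loess with span 0.5. Counts came to 16691019 to 31148081 reads per library. Intervals cover counting error only, and the SEs also hold the spread between libraries.

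The named genes are the 9 subunits, the 5 genes nearest to OST5 with at least 20 CPM, and, from each list, up to 4 called genes with the smallest p. The 9 genes and the lists were chosen with earlier results of these data known. Names and lengths come from RefSeq R64.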

Additional observations from a re-analysis of the deposited data

How the results depend on the processing

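Of the comparisons, those between electroporations and the interactions kept a count of 0 subunit genes called under every alternative run, and 7 to 9 of the 9 genes kept their place in the order of levels per length. The counts for polysomal against total mRNA, 0 in the planned fit, moved. With the replicate block the count was 1 with no RNA, 1 or 3 with rancRNA_18 (library as replicate 1 or 2) and 3 with rancRNA_18-M2, and the block changed no other call of a subunit gene. With rancRNA_18-M2, DESeq2 called 1 gene, and leaving out each replicate in turn gave 0 to 1, the 1 being without polysomal replicate 1. Values near 0 changed sign, none of them called. For OST5, rancRNA_18 against rancRNA_18-M2 in total mRNA was -0.0063 with the replicate block. In polysomal mRNA, on library totals, it was -0.0035 and its interaction -0.0164, and STT3 for rancRNA_18-M2 against no RNA was -0.029. Leaving out each replicate in turn, polysomal mRNA of rancRNA_18-M2 against no RNA gave -0.370 to 0.279 for OST5, -0.365 to 0.202 for OST2 and -0.0938 to 0.257 for STT3. It gave -0.0762 to 0.0086 for OST3 and 0.009 to 0.0427 for OST5 in total mRNA for rancRNA_18 against rancRNA_18-M2, and -0.0266 to 0.582 for OST5 in polysomal mRNA. For the interactions it gave -0.286 to 0.0653 for STT3 (rancRNA_18-M2 against no RNA) and -0.0491 to 0.555 for OST5 (rancRNA_18 against rancRNA_18-M2). The cause was not tested. The rancRNA_18 polysomal group has 1 library and no spread of its own.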
